A study of Homo sapiens with 16 samples.

Results

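The genes of the RUNX family (RUNX1, RUNX2 and RUNX3) and CBFB, the gene of their shared partner subunit, were examined for binding of p65 in colon cancer cells. All 4 members were found in the annotation, out of 19962 protein-coding genes that were read the same way. p65 is the RELA subunit of NFκB, and the data are p65 ChIP-Seq libraries, in which chromatin fragments held by an antibody are sequenced. The cells were HT29 and SW480, established human colorectal adenocarcinoma lines. Each line was used as control cells (mock) or with a stably introduced gene of estrogen receptor β (ERβ). Each of these 4 groups had 3 ChIP libraries and 1 library titled as input. The characteristics of the input libraries also name the antibody, and they were read here as inputs by their titles, on which every ratio to input depends. Every group was exposed to TNFα at 30 ng/ml for 30 minutes, so no group shows p65 without TNFα. By the study's methods, cells grown in ordinary serum were moved to hormone-stripped serum the day before ChIP, and no estrogen was added. Mock and ERβ cells of a line are stably modified cultures of that line, and the study calls the 3 libraries of a group biological replicates. Whether they came from separate cultures is not given in the labels, and the p-values measure the spread between these libraries. The study credits the inputs of the ERβ cells to another deposit, and when they were prepared is not given in the sources used here.

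RUNX proteins bind DNA through the runt domain, which recognises the word TGTGGT, and CBFβ, the product of CBFB, does not touch DNA but raises the affinity of its RUNX partner. RUNX1 is known for its role in blood cell formation, RUNX2 for bone formation, and RUNX3 in T cells and in the epithelium of the digestive tract. Each RUNX gene has a distal promoter (P1) and a proximal promoter (P2). TNFα releases p65 from its inhibitors in the cytoplasm, and in the nucleus p65 binds κB sites, which have the form GG followed by purines, a middle part, pyrimidines and CC.

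In GRCh38 the reference transcripts of RUNX1 (ENSG00000159216) span chr21:34787801-35049344 on the minus strand and those of RUNX3 (ENSG00000020633) chr1:24899511-24965010, also minus. RUNX2 (ENSG00000124813) spans chr6:45328317-45551082 and CBFB (ENSG00000067955) chr16:67029149-67101058, both on the plus strand. For each gene, all 200-bp bins from 100 kb upstream to 20 kb downstream were read, introns included. The windows held 1908 bins at RUNX1, 1715 at RUNX2, 929 at RUNX3 and 961 at CBFB. Signal is the deposited tag density, which the authors scaled to a total of 10 M tags with fragments taken as 100 bp. A bin was listed for a group when the mean of its 3 ChIP libraries was at least 2 and at least 4 times the input of that group. Listed bins with at most 200 bp between them were joined to 1 site. The scaled tracks hold no read counts, and the read totals that the study lists were not used here, so no counting interval is given. An exogenous ESR2, which codes for ERβ, lacks introns, and the ratio of signal in coding exons to introns of ESR2 was 4.08 to 7.45 in the HT29 ERβ ChIP libraries against 1.08 to 1.35 in HT29 mock. In SW480 the ratio was 2.48 to 3.13 with ERβ and 1.30 to 1.63 in mock, so the groups did not overlap in either line. Over the tested bins described further on, the HT29 libraries numbered 1 stood apart, at 1.12 (mock) and 1.02 (ERβ) times the mean profile against 0.695 to 0.791 for the other 4, and the SW480 ERβ libraries were at 1.03 to 1.31.

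In SW480 ERβ cells 4 sites were listed, 2 at RUNX1 and 2 at RUNX3. None was listed at RUNX2 or CBFB, and HT29 mock, HT29 ERβ and SW480 mock had 0 listed sites in the windows of the 4 genes. The longer annotated record of RUNX2, described further on, added 2 sites listed in both HT29 groups. Over the genome 0.0688% of bins with any signal were listed in SW480 ERβ, against 0.044% in HT29 mock, 0.0292% in HT29 ERβ and 0.0108% in SW480 mock. Of the 9577 bins listed in SW480 ERβ, 5476 or 57.2% were listed in no other group, as were all 6 listed bins of RUNX1 and RUNX3. Among all protein-coding genes 41.7% had a listed bin in their window in SW480 ERβ, 29.6% in HT29 mock, 22.2% in HT29 ERβ and 10.9% in SW480 mock. The count of 2 of 4 members in SW480 ERβ (50%) thus lies near the background, and windows of RUNX1 and RUNX2 are longer than 95.5% and 94.2% of those of other genes.

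Sequences of the 4 sites are shown because they differ in the words they hold. The RUNX3 sites are printed whole, and of each 400-bp RUNX1 site the stretch given by its coordinates is printed, while the words were searched over the whole site. Each is the plus strand of GRCh38, in lower case, with capitals for an exact match to the κB consensus or, on either strand, to TGTGGT, the RUNX word. The first 3 lines lie in introns and the last upstream of RUNX3.

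RUNX1 site 1 (chr21:34844601-34844800): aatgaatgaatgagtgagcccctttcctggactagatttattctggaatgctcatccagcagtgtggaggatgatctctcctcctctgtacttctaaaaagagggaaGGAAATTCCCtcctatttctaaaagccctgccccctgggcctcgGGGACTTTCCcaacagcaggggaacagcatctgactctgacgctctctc
RUNX1 site 2 (chr21:34889901-34890200): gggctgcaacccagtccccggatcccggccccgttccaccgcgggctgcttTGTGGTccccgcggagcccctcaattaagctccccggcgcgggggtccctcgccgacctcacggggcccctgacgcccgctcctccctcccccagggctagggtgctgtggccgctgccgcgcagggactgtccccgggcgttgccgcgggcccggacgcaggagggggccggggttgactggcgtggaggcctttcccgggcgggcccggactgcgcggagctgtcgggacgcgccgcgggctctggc
RUNX3 site 1 (chr1:24925201-24925400): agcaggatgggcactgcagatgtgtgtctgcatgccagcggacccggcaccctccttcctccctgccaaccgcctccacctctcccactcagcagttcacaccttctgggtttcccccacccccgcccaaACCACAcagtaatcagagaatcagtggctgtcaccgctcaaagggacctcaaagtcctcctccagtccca
RUNX3 site 2 (chr1:24970401-24970600): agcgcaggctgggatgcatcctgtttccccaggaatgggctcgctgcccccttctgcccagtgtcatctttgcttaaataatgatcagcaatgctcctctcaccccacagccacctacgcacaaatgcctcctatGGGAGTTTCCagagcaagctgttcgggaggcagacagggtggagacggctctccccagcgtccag

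RUNX1 site 1 holds 2 κB matches, GGAAATTCCC at chr21:34844708-34844717 and GGGACTTTCC at chr21:34844752-34844761, and RUNX3 site 2 holds 1, GGGAGTTTCC at chr1:24970536-24970545. RUNX1 site 2 and RUNX3 site 1 hold no κB match, but each holds 1 RUNX word, at chr21:34889952-34889957 on the plus strand and at chr1:24925331-24925336 on the minus strand, where it reads ACCACA on the strand shown. No site holds the AP-1 word. Of all 200-bp bins of the genome 2.91% hold a κB match, 13.4% a RUNX word and 2.99% an AP-1 word. Of bins listed in SW480 ERβ 40.9% hold a κB match, 17% a RUNX word and 10.6% an AP-1 word. Among the bins listed in SW480 ERβ and in no other group the shares were 36% for κB and 20.5% for the RUNX word, and among bins listed in HT29 mock they were 41.9% and 10.4%. A match describes letters only and does not show that a protein is bound there.

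RUNX1 site 1 covers chr21:34844601-34845000, in an intron of RUNX1 and inside the non-coding gene ENSG00000286153, 43990 bp downstream of P2. In its higher bin the SW480 ERβ libraries read 2.12, 3.99 and 5.21, and the SW480 mock libraries 1.12, 0.659 and 1.74. HT29 mock libraries read 1.69, 1.03 and 0.803, and HT29 ERβ libraries 1.4, 0.34 and 0.917. All 3 SW480 ERβ libraries lie above the other 9, which overlap each other. The means were 3.77 ± 1.56 (SD, n = 3) in SW480 ERβ and 1.17 ± 0.544 (SD, n = 3) in SW480 mock, 10.8 and 2.45 times their inputs. The adjoining bin, chr21:34844801-34845000, averaged 2.52 in SW480 ERβ and 0.74 in SW480 mock.

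RUNX1 site 2 covers chr21:34889801-34890200, in the intron of the longer isoform, 1410 bp upstream of P2 at its higher bin, which is 79% G and C. The SW480 ERβ libraries read 2.42, 5.18 and 3.95 there, and the SW480 mock libraries 1.49, 1.74 and 0.892. HT29 mock libraries read 2.2, 1.15 and 1.26, and HT29 ERβ libraries 2.13, 0.786 and 0.523. The SW480 groups do not overlap, and the lowest SW480 ERβ library lies close to the highest library of each HT29 group, which is replicate 1 in both. The means were 3.85 ± 1.38 in SW480 ERβ and 1.37 ± 0.435 in SW480 mock (SD, n = 3 each), and the inputs of these groups were 0.616 and 1.13. The highest bin of P2, chr21:34889601-34889800, lies next to this site, and its mean was 1.73 ± 0.522 in SW480 ERβ and 0.682 ± 0.0273 in SW480 mock (SD, n = 3 each).

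RUNX3 site 1 is the bin chr1:24925201-24925400, in an intron 4976 bp downstream of P2. The SW480 ERβ libraries read 3.77, 2.04 and 3.87, and the SW480 mock libraries 0.654, 0.89 and 1.15. HT29 mock libraries read 1.09, 0.77 and 0.91, and HT29 ERβ libraries 0.541, 0.59 and 1.1. Every SW480 ERβ library lies above all others here too, and its mean of 3.23 ± 1.03 (SD, n = 3) was 11.9 times the input. RUNX3 site 2 is the bin chr1:24970401-24970600, 5490 bp upstream of P1 and in an exon of the non-coding gene ENSG00000261025. It read 1.73, 3.37 and 3.82 in SW480 ERβ, 0.789, 1.76 and 2.72 in SW480 mock, and 0.18 to 0.706 in the 6 HT29 libraries. The SW480 groups overlap, and both lie above HT29.

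**Figure D1:**
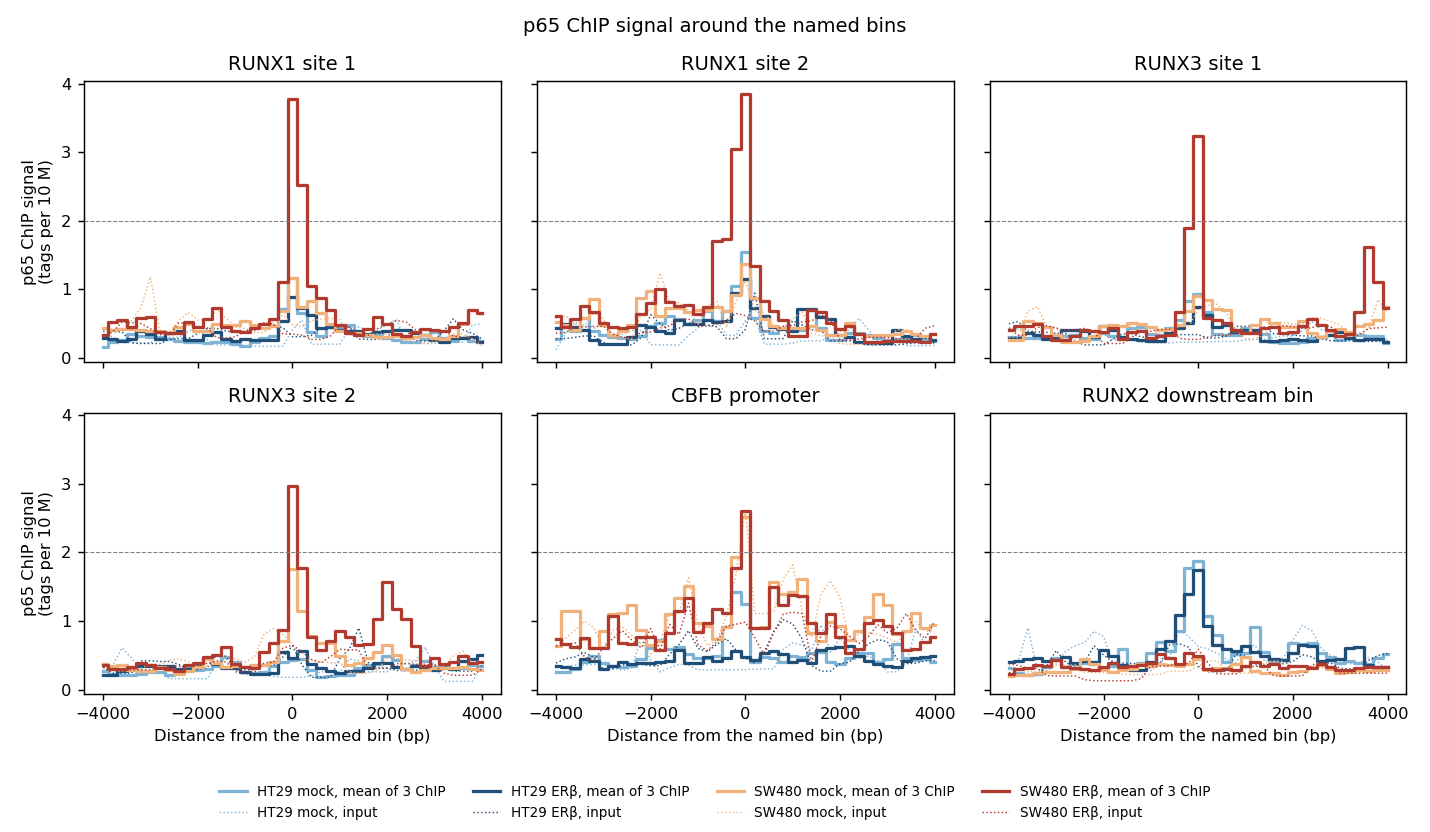
Signal in 200-bp bins (vertical axis, tags per 10 M) against distance from the named bin (horizontal axis, bp), with solid steps for the mean of 3 ChIP libraries of a group, dotted lines for its input and a dashed grey line at the listing minimum of 2. At both RUNX1 sites and RUNX3 site 1 only the SW480 ERβ line passes 2, at the CBFB promoter both SW480 lines do, and at the RUNX2 bin the HT29 lines are the higher ones.

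**Figure D2:**
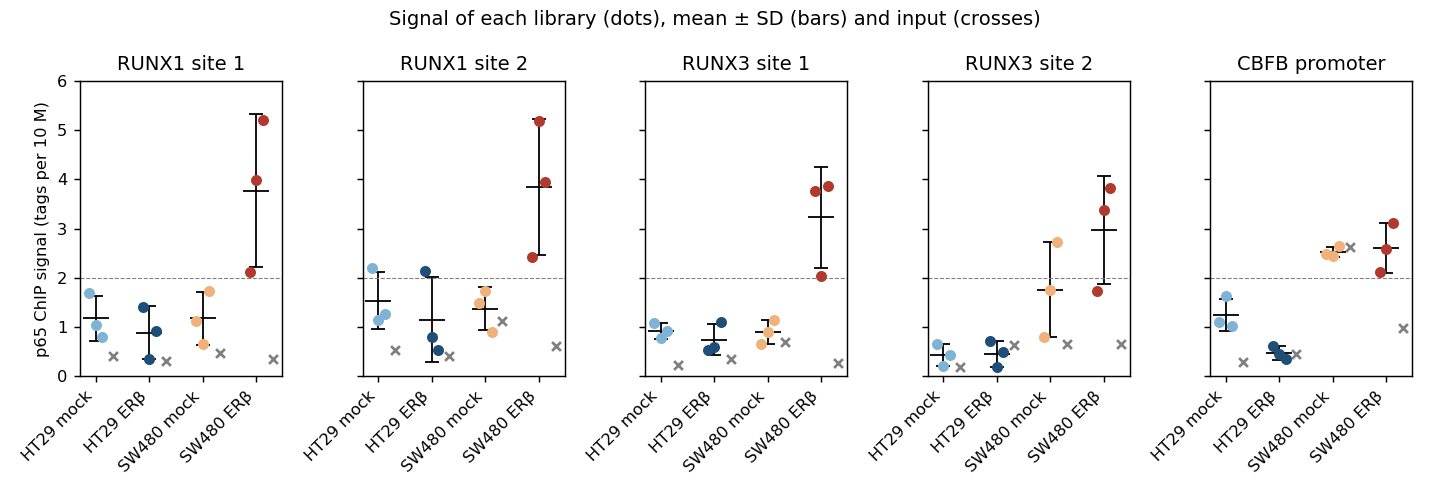
Signal of every library (dots, tags per 10 M) by group in the highest bin of each RUNX1 and RUNX3 site and in the CBFB promoter bin, with mean ± SD (n = 3, black bars), the input of the group (crosses) and a dashed line at 2. At RUNX1 site 1 the SW480 ERβ libraries span 2.12 to 5.21 and all other libraries stay below 2, while at the CBFB promoter the SW480 mock input is as high as its ChIP libraries.

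The first question is whether p65 signal differed between ERβ and mock cells of the same line. Bins with a mean of at least 1 over the 12 ChIP libraries were tested with limma on log2(signal + 1), which left 47526 bins in the genome and 22 in the windows of the 4 genes. Of these 5 lay in the window of RUNX1, 2 in that of RUNX2, 2 in that of RUNX3 and 13 in that of CBFB. p-values were adjusted over all 47526 bins by the method of Benjamini and Hochberg. In SW480, 5 of the 22 bins were higher with ERβ and 0 were lower, where 12.9% of all tested bins were higher and 0.0421% lower. The median difference over all tested bins was 0.22 on the log2(signal + 1) scale, and differences relative to it are given where they matter. Of the 5 bins 3 had a mean under 1 over the 9 libraries other than SW480 ERβ. These entered the test only through the group in which they were high. The listed sites were themselves chosen for their level in SW480 ERβ. The count of 5 is thus a description of these bins. So are the p-values given below at the listed sites for SW480 ERβ against mock and for the interaction. When libraries were rescaled by the median ratio over tested bins, that median was -0.03, and the split over the genome went from 6113 higher and 20 lower bins to 2327 higher and 1206 lower.

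At RUNX1 site 1 p65 signal rose in SW480 with ERβ by 1.11 ± 0.26 (SE) on the log2 scale, which is 0.89 above the median of all bins (limma adjusted p = 0.0126). At RUNX1 site 2 it rose by 1.01 ± 0.24 (SE, 0.79 above the median, limma adjusted p = 0.0133) and at RUNX3 site 1 by 1.13 ± 0.23 (SE, 0.91 above the median, limma adjusted p = 0.00506). The higher bins of both RUNX1 sites averaged 1.08 and 1.35 over the libraries other than SW480 ERβ and would have been tested without that group, but RUNX3 site 1 averaged 0.856. With all bins of a mean of at least 0.5 tested, which these 3 bins reach without SW480 ERβ, the limma adjusted p was 0.00128, 0.00655 and 0.000382. The adjoining bins of the RUNX1 sites, at 0.708 and 0.969 without SW480 ERβ, differed by 0.98 and 1.04, with limma adjusted p of 0.00197 and 0.00154 at that lower minimum. In signal itself the mean was 3.21, 2.8 and 3.59 times that of mock at RUNX1 site 1, RUNX1 site 2 and RUNX3 site 1. For each of these 3 bins an exact two-sided permutation test of 3 against 3 libraries gave p = 0.1, the smallest value that this design allows. The listing rule chose these bins by their SW480 ERβ level, so neither these p-values nor those of limma are independent support. At RUNX3 site 2 the difference was 0.55, with a 95% interval of -0.03 to 1.13 (limma adjusted p = 0.202), which did not pass the test.

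RUNX1 site 1 missed the threshold without SW480 mock replicate 1 (limma adjusted p = 0.0563), mock replicate 2 (0.0819), ERβ replicate 2 (0.051) or ERβ replicate 3 (0.0786), with differences of 0.89 to 1.11 in these fits. RUNX1 site 2 missed it without SW480 mock replicate 1 (0.0508), mock replicate 3 (0.0704), ERβ replicate 2 (0.0725) or ERβ replicate 3 (0.061), with differences of 0.81 to 1.05, and also after rescaling by the median ratio, with 0.68 (0.0508). RUNX3 site 1 passed in each of these fits, with limma adjusted p from 0.000273 to 0.04 over 14 alternatives. Its main test was reached only through SW480 ERβ, so this does not rank it above the RUNX1 sites. The number of the 22 bins called was 3 without SW480 mock replicate 1, mock replicate 2 or ERβ replicate 3, and 2 without ERβ replicate 2. Of the 47526 bins of the genome 2194, 2419, 2547 and 2597 were called in these fits.

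In HT29 none of the 22 bins passed with limma, and neither did any of the 47526 bins of the genome, where 895 had an unadjusted p under 0.05. Whether the replicate numbers pair libraries is not given in the labels. With replicate number as a block 60 bins of the genome passed (0.126%), still 0 of them at the 4 genes. Without both HT29 libraries numbered 1, left out after the data had been seen, 0 bins of the genome passed. The differences between ERβ and mock were -0.22 at RUNX1 site 1 (95% interval -0.73 to 0.28), -0.29 at RUNX1 site 2 (-0.88 to 0.30), -0.15 at RUNX3 site 1 (-0.55 to 0.24) and 0.02 at RUNX3 site 2 (-0.30 to 0.34).

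The difference between the lines in their ERβ effect was tested as an interaction over the 12 ChIP libraries. The median interaction over all tested bins was 0.30. It passed at 1 of the 22 bins, RUNX3 site 1, with 1.28 ± 0.31 (SE) on the log2 scale, 0.99 above that median (limma adjusted p = 0.0305). Of all tested bins 2.8% passed upward and 0.0021% downward. RUNX3 site 1 was tested only through its level in SW480 ERβ, and with bins of a mean of at least 0.5 tested the interaction did not pass (limma adjusted p = 0.0673). The interaction was 1.33 at RUNX1 site 1 and 1.30 at RUNX1 site 2, larger than at RUNX3 site 1 but with wider intervals (0.51 to 2.16 and 0.46 to 2.13), and neither passed (limma adjusted p = 0.0744 and 0.0861). It lay 1.04 and 1.00 above the median at these sites. At RUNX3 site 2 it was 0.53 (95% interval -0.24 to 1.30, limma adjusted p = 0.442). With replicate number as a block both RUNX1 sites passed (limma adjusted p = 0.000298 and 0.000406). In that fit 5 of the 22 bins passed, where 9597 of the 47526 bins of the genome did. Whether the numbers pair libraries is not given in the labels. The call at RUNX3 site 1 was lost after rescaling by the median ratio, with 0.93 (0.0795). It was also lost without HT29 mock replicate 1 (0.0607), HT29 mock replicate 3 (0.0581), HT29 ERβ replicate 2 (0.0937), SW480 mock replicate 1 (0.103), SW480 mock replicate 2 (0.0813) or SW480 ERβ replicate 3 (0.0829), with an interaction of 1.16 to 1.29 in these fits. Without replicate 1 of HT29 ERβ or of SW480 ERβ 5 bins passed, where 5295 and 4096 of the 47526 bins of the genome did.

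**Figure D3:**
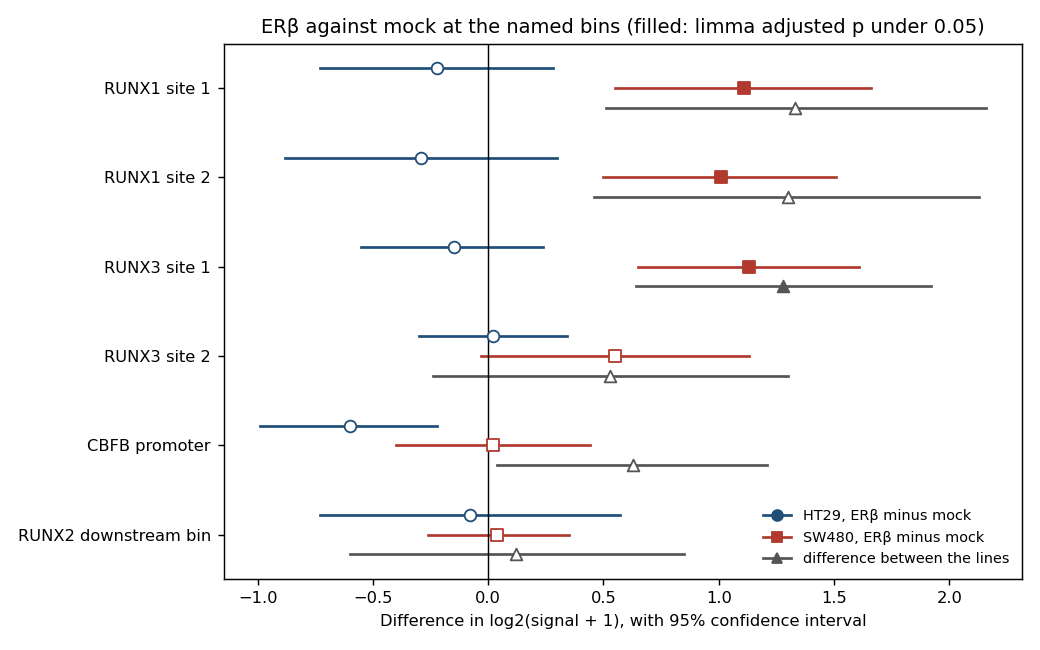
Difference in log2(signal + 1) at 6 bins of the 4 genes (horizontal axis, point with 95% confidence interval from limma) for ERβ minus mock in HT29 (circles), the same in SW480 (squares) and the difference between the lines (triangles), with filled points for an adjusted p under 0.05. The SW480 points of RUNX1 site 1, RUNX1 site 2 and RUNX3 site 1 lie between 1.01 and 1.13, and the HT29 points of these bins between -0.29 and -0.15.

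The other question is how the lines compare at the same ERβ status. Between the mock cells neither RUNX1 site nor RUNX3 site 1 differed by the test. The differences of SW480 minus HT29 were -0.01 (95% interval -0.49 to 0.47), -0.09 (-0.57 to 0.39) and -0.02 (-0.41 to 0.37). With inputs subtracted they were -0.07, -0.58 and -0.49, and none passed (limma adjusted p = 0.898, 0.227 and 0.196). The HT29 mock means were 2.84, 2.84 and 4.02 times input, and the SW480 mock means 2.45, 1.22 and 1.28 times. At RUNX3 site 2 the difference was 0.89 ± 0.24 (SE), and with inputs of 0.66 in SW480 mock and 0.18 in HT29 mock subtracted the difference was 0.64 and did not pass (limma adjusted p = 0.292). A further RUNX1 bin, chr21:34987001-34987200, differed by 1.15 between the mock cells, with means of 1.98 in SW480 mock, 2.91 in SW480 ERβ and 0.353 and 0.296 in the HT29 groups. Its inputs were 0.887 in SW480 mock and 0.161 in HT29 mock, and after input subtraction the mock difference was 0.81 and did not pass (limma adjusted p = 0.0991). Its SW480 ERβ mean was 3.9 times the input and so just outside the listing rule, while RUNX3 site 2 at 4.56 times and the lower bin of RUNX1 site 2 at 4.67 times were just inside. In all, 14 of the 22 bins were higher and 2 lower in SW480 mock than in HT29 mock, where 23.7% of all tested bins were higher and 22.2% lower. RUNX3 site 2 and chr21:34987001-34987200 averaged 0.444 and 0.325 over the 6 HT29 libraries and the 13 CBFB bins 0.398 to 0.995, so these bins entered the test through SW480, and nothing is read from their tests or from the count. With ERβ in both lines 20 were higher and 2 lower, where the background was 33.9% higher and 9.72% lower.

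Most of these bins lay in the window of CBFB, where the mean input was higher in SW480 too. Of its 13 tested bins, only those at chr16:67028601-67029000 and chr16:67029401-67029600 lie around the start of CBFB. The others lie upstream of the gene (chr16:66934001-66934800 and chr16:66977601-66978000) or past its end (chr16:67109401-67110200). Counts over the 13 thus describe the window and not CBFB alone. Over the CBFB window the mean input was 0.916 in SW480 mock and 0.762 in SW480 ERβ, against 0.385 and 0.442 in HT29. The 13 tested CBFB bins averaged 1.57 to 2.52 in the SW480 mock ChIP libraries and 1.14 to 3.04 in the SW480 mock input, a median of 0.975 times input. In SW480 ERβ they were 1.23 to 2.64 times input. In HT29 mock they were 0.377 to 4.91 times input (median 1.22), highest at chr16:67028601-67028800, and in HT29 ERβ 0.394 to 1.03 times. Of the 13 bins 12 were higher in SW480 mock than in HT29 mock, but once each group's input had been subtracted 0 were higher and 1 was lower, where 1.23% of all tested bins were then higher and 5.53% lower. With ERβ in both lines 4 of the 13 stayed higher than in HT29 after input subtraction and 0 were lower, where 16.8% of all tested bins were higher and 2.3% lower. The promoter bin differed by 1.30. All 13 bins entered the test through SW480, so the counts between the lines and this difference are a description. Whether the lines differ in copies of this region was not tested.

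The highest bin of the CBFB promoter, chr16:67028801-67029000, lies 249 bp upstream of the start of CBFB in the transcripts used. It read 2.49, 2.44 and 2.64 in SW480 mock and 2.11, 2.58 and 3.12 in SW480 ERβ, with no difference by the test (0.02, 95% interval -0.40 to 0.44, limma adjusted p = 0.955). The inputs of these 2 groups were 2.63 and 0.984, so the same bin was 0.961 times input in mock and 2.64 times input with ERβ. After input subtraction 5 of the 13 CBFB bins were higher with ERβ in SW480, where 20.9% of all tested bins were, the promoter bin by 1.37 (limma adjusted p = 0.0212). The 1 input library of a group was taken off its 3 ChIP libraries, so the spread of the input is not in this test. The difference at the promoter bin rests on the 2 inputs, and no call is read from it. After rescaling by the median ratio 0 of the 13 were higher and 1 lower, where 2327 and 1206 of all 47526 tested bins were. The promoter bin then differed by -0.30. In HT29 the promoter bin read 1.11, 1.62 and 1.01 in mock and 0.618, 0.45 and 0.35 with ERβ, groups that do not overlap. Its HT29 inputs were 0.292 and 0.46, so it was 4.26 times input in mock and 1.03 times with ERβ. The HT29 mock mean of 1.25 was under the listing minimum of 2. The difference of -0.60 ± 0.18 (SE) did not pass after adjustment (limma adjusted p = 1, unadjusted p = 0.00423), nor with the replicate block (limma adjusted p = 0.159).

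**Figure D4:**
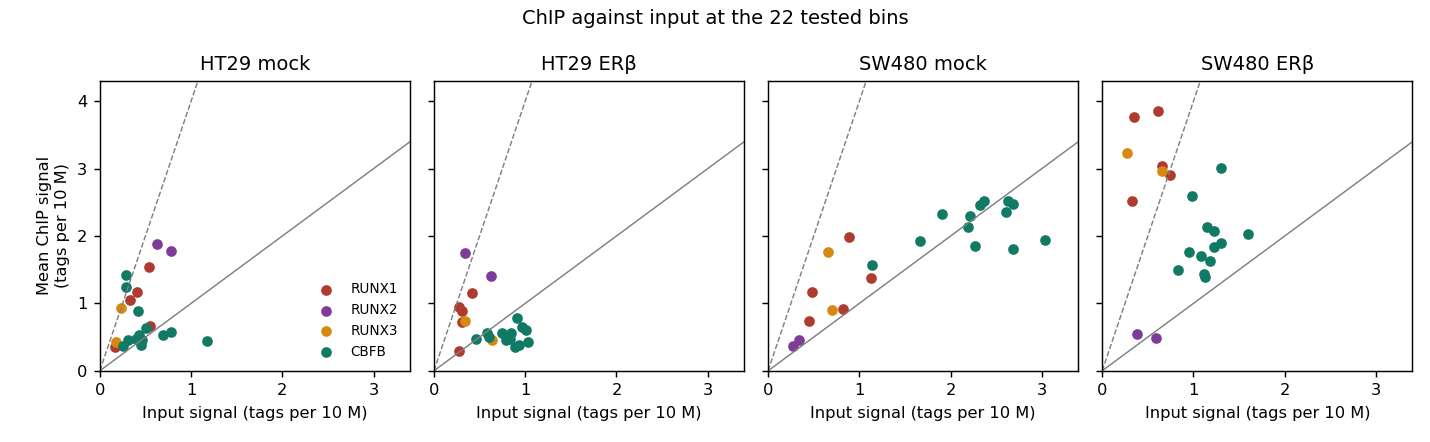
Mean ChIP signal of a group (vertical axis) against its input (horizontal axis), both in tags per 10 M, for the 22 tested bins, coloured by gene, with a solid line at equal signal and a dashed line at 4 times the input. In SW480 mock the CBFB bins lie along the solid line at inputs of 1.14 to 3.04, and in SW480 ERβ the RUNX1 and RUNX3 bins lie near or above the dashed line.

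At RUNX2 both promoters were low in all groups. The highest P1 bin averaged 0.249 in HT29 mock, 0.718 in HT29 ERβ, 0.578 in SW480 mock and 0.426 in SW480 ERβ, against inputs of 0.972, 0.503, 0.33 and 0.3, and the P2 bin averaged 0.345 to 0.596. The 2 tested bins of RUNX2 adjoin each other downstream of the reference transcripts used here, and the higher is chr6:45567001-45567200. It read 2.88, 1.16 and 1.6 in HT29 mock, 2.68, 0.83 and 1.74 in HT29 ERβ, and 0.3 to 0.762 in the 6 SW480 libraries. Replicate 1 was the highest library in both HT29 groups. HT29 mock was 2.98 times and HT29 ERβ 5.13 times the input, with means of 1.88 and 1.75 just under the listing minimum. Over the 6 SW480 libraries it averaged 0.47, so it entered the test only through HT29 and no call is read from it. The differences of SW480 minus HT29 were -0.96 ± 0.23 (SE) in mock and -0.83 ± 0.23 (SE) with ERβ, and after input subtraction the differences were -0.93 and -1.18, which did not pass (limma adjusted p = 0.117 and 0.053).

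The whole annotated record of RUNX2 runs past the reference transcripts used here, over chr6:45328157-45664349. Reading the whole gene record added 2 sites there, both listed in the HT29 groups and not in SW480. Bins chr6:45590201-45590400 and chr6:45590401-45590600 lie in an intron of a longer protein-coding transcript of RUNX2, 39.1 kb past the end used above, and were described after their values had been seen. The first read 7.45, 2.25 and 4.23 in HT29 mock, 6.44, 3.73 and 3.15 in HT29 ERβ, 0.24 to 0.412 in SW480 mock and 0.21 to 0.33 in SW480 ERβ. The libraries of the lines do not overlap here. ERβ minus mock was 0.01 in HT29 and -0.05 in SW480. The other added site, chr6:45591401-45591600, averaged 2.7 in HT29 mock, 2.67 in HT29 ERβ, 0.275 in SW480 mock and 0.785 in SW480 ERβ, where the input was 0.43 and ERβ minus mock was 0.48 ± 0.14 (SE). Both bins were listed for their level in HT29 and reached the test only through it, so these values are a description and no call is read from them. The stretch around the first site is shown for its κB match, in capitals, GGGGTTTTCC at chr6:45590358-45590367.

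RUNX2 distal site (chr6:45590251-45590550): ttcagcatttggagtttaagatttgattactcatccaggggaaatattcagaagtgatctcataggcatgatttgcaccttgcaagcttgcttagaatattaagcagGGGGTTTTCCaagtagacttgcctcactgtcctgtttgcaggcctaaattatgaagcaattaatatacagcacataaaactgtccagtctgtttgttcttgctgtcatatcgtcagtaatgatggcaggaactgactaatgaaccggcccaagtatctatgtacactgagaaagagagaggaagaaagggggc

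The whole record of RUNX1, 1217 kb long, likewise added 2 sites in SW480 ERβ. The nearer, chr21:35256801-35257000, lies 207.6 kb upstream of P1 and averaged 2.75 in SW480 ERβ, 1.41 in SW480 mock, 0.986 in HT29 mock and 0.846 in HT29 ERβ. Its difference between ERβ and mock in SW480 was 0.64 and did not pass (limma adjusted p = 0.0625). The farther is nearest to SETD4, with 2.66 in SW480 ERβ and 1.27 in SW480 mock, a difference of 0.69 (limma adjusted p = 0.0342) at a bin that reached the test only through SW480 ERβ.

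Among the promoters of RUNX1 and RUNX3 no bin was listed or high enough to be tested. The P1 bin of RUNX1 averaged 0.167 in HT29 mock, 0.277 in HT29 ERβ, 0.66 in SW480 mock and 0.891 in SW480 ERβ. The P1 bin of RUNX3 read 0.905, 2.6 and 0.745 in SW480 ERβ and 0.273 to 0.441 in SW480 mock, groups that do not overlap although replicate 2 sets most of the mean of 1.42. The P2 bin of RUNX3 averaged 1.34 in SW480 ERβ, 0.656 in SW480 mock and 0.2 and 0.169 in HT29 mock and ERβ, and the SW480 libraries overlap.

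Proteins that work with RUNX were read by the same rule. They are corepressors (TLE1 to TLE5, the ETO family, SIN3A, HDAC4), coactivators (EP300, CREBBP, KAT6A, KAT6B, YAP1, WWTR1), modifying enzymes (PRMT1, SUV39H1, HIPK2) and DNA-binding partners (SMAD3, ETS1). Of these 21 genes 13 had a listed bin in SW480 ERβ, 6 in SW480 mock, 10 in HT29 mock and 9 in HT29 ERβ. These are 61.9%, 28.6%, 47.6% and 42.9%, against 41.7%, 10.9%, 29.6% and 22.2% of all protein-coding genes, but the partners had longer windows, with a median of 1216 bins against 723 over all genes. In SW480, 51 of their 196 tested bins were higher with ERβ (26%) and 0 lower, at 13 genes, where 12.9% and 0.0421% of all tested bins were, with a median difference of 0.39 against 0.22 over all tested bins. Bins that entered the test only through SW480 ERβ were not counted apart. The 1 tested bin of WWTR1 is such a bin, at 0.901 without that group. Neighbouring bins of a gene are not independent, so this count is a description. In HT29 0 of the 196 passed with limma, and the median was -0.09 against -0.07.

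At the start of TLE1, a Groucho-type corepressor, the bin chr9:81688801-81689000 averaged 0.325 ± 0.0676 in SW480 mock and 2.8 ± 0.539 in SW480 ERβ, and 2.49 and 1.97 in HT29 mock and ERβ. It rose with ERβ in SW480 by 1.51 ± 0.19 (SE, limma adjusted p = 0.000326), and the interaction passed (1.72 ± 0.34, limma adjusted p = 0.0117). The bin given for each gene is its listed bin with the highest mean over the 12 ChIP libraries. Those of TLE1 and YAP1 were listed in SW480 ERβ alone, so their tests describe bins chosen by that level. At the start of ETS1, which binds DNA side by side with RUNX1, the signal was already 5.44 in SW480 mock and reached 11.7 with ERβ, a rise of 0.94 ± 0.23 (SE, limma adjusted p = 0.0151). YAP1, a Hippo pathway coactivator, rose at its promoter by 1.03 ± 0.25 (SE, limma adjusted p = 0.0134). SMAD3, which joins RUNX in TGFβ signalling, had the highest signal of HT29 mock among the strongest bins of these genes, 9.24, and rose in SW480 from 4.88 to 10.7 (0.96 ± 0.23 SE, limma adjusted p = 0.0133). CBFA2T2, an ETO-family corepressor, had 3.15 and 3.46 in SW480 mock and ERβ at its strongest bin, which did not pass (limma adjusted p = 0.929). For 5 of the 14 partners with a listed bin in any group the strongest lies nearer to the start of another gene, RRAS for PRMT1, MAN2C1 for SIN3A, AP3M2 for KAT6A, TBXAS1 for HIPK2 and TM4SF4 for WWTR1.

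Genes known as RUNX targets numbered 16, of blood and T cells (CSF2, IL3, MPO, ELANE, CSF1R, CD4, ITGAE), of bone (SPP1, MMP13, IBSP, BGLAP, SP7, COL10A1) and of cell cycle and death (CDKN1A, BCL2, BCL2L11). A listed bin was found in 8 in SW480 ERβ, 2 in SW480 mock and 4 in each HT29 group, or 50%, 12.5% and 25%, where 41.7%, 10.9%, and 29.6% (mock) and 22.2% (ERβ) of all protein-coding genes had one. For 5 of the 8 the strongest listed bin lies nearest to another gene, SEMA4A for BGLAP, SP1 for SP7, MISP for ELANE, PTMS for CD4 and CSF2 for IL3. Of the 66 tested bins of the targets 19 were higher in SW480 with ERβ (28.8%) and 0 lower, against 12.9% and 0.0421% of all tested bins, with a median of 0.36 against 0.22, while 0 passed in HT29 with limma. Here too bins that entered only through SW480 ERβ were not counted apart, so this count is a description. CSF2, a cytokine gene whose control is known to involve NFκB and RUNX1, had its strongest bin 20911 bp downstream of its start, at 4.39 in SW480 mock and 11.5 in SW480 ERβ (1.20 ± 0.20 SE, limma adjusted p = 0.00191). BCL2L11, which codes for the cell-death protein BIM, read 1.86 in SW480 mock and 5.29 in SW480 ERβ at a bin 49014 bp upstream, a difference of 1.11 ± 0.22 (SE). That bin averaged 0.952 without SW480 ERβ and so was tested only through that group, and with bins of a mean of at least 0.5 tested its limma adjusted p was 0.00229. CDKN1A, the gene of the cell cycle inhibitor p21, was 3.46 and 2.94 in HT29 mock and ERβ, 0.411 in SW480 mock and 1.63 in SW480 ERβ, a rise of 0.90 ± 0.18 in SW480 (SE, limma adjusted p = 0.00455). The windows of CSF2 and IL3 overlap and share bins.

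**Figure D5:**
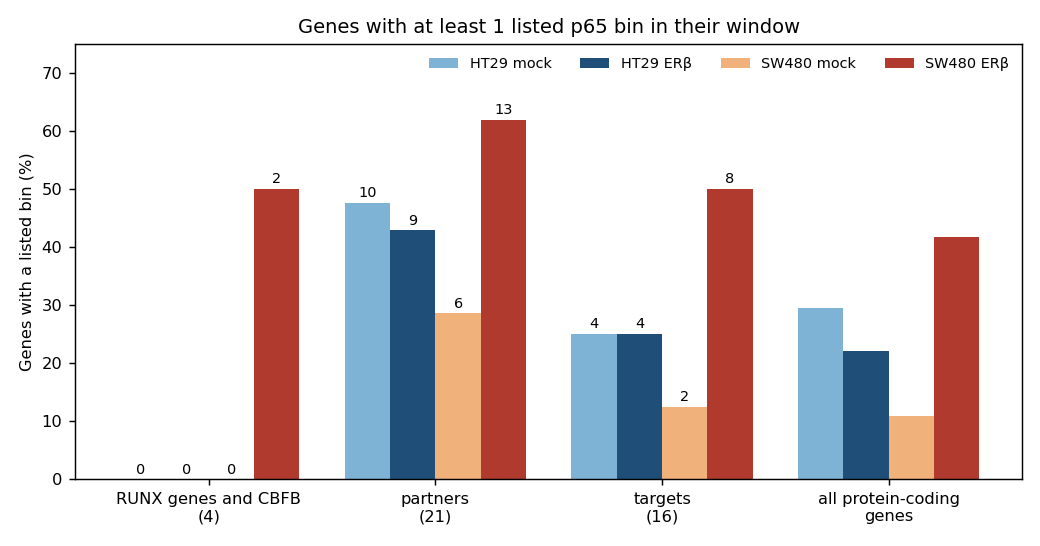
Share of genes with at least 1 listed p65 bin in their window (vertical axis, percent) for the RUNX genes with CBFB, RUNX partners, RUNX targets and all protein-coding genes, by group, with the number of genes above each bar of the 3 lists. SW480 ERβ is the highest bar in each set, with 2, 13 and 8 genes and 41.7% of all genes, and SW480 mock has 0, 6 and 2.

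The bins elsewhere whose signal over the 12 ChIP libraries was most like that of RUNX1 site 2 were nearest to LGALS3 (Pearson r = 0.98), ELOVL5 (0.974), ZFP36L1 (0.964), SHMT2 (0.962) and MMP17 (0.962). The 10295 bins compared were those with at least the mean signal of that site over the 12 libraries. These values describe 12 libraries that share lines and antibody. At LGALS3 the means were 2.06, 1.68, 1.84 and 4.22 in HT29 mock, HT29 ERβ, SW480 mock and SW480 ERβ. RUNX1 site 2 has the same order, a likeness by which the bin was chosen.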

How the data were processed

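p65 ChIP and input libraries of HT29 and SW480 cells were aligned by the authors to GRCh38 with STAR, unique reads were kept, and HOMER made 1 track per library. The deposited values are coverage signal, tag density scaled to 10 M tags and 100-bp fragments, without stretches under 0.05. Read counts are not in these values and the read totals that the study lists were not used here, so the count test that the authors ran with edgeR was not possible, and limma 3.58.1 (R 4.3.3, mean-variance trend) was used on log2(signal + 1). Tracks were averaged in 200-bp bins with numpy 2.4.6. Gene spans came from reference transcripts of GENCODE release 44, and sequences were read with pysam 0.24.0. Exact permutation tests used scipy 1.17.1. Fits were tested on simulated data. Sites were named by rule: every listed site, and the highest bin from 1 kb upstream to 100 bp downstream of each promoter. The members and gene lists were chosen with earlier results of these data known.

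Samples were grouped by line and construct as the labels give them. Alternatives covered the pseudocount, the filter, the scaling, the input, the bin position, the gene span, the samples fitted, a replicate block and each library left out. With group means taken off, mock and ERβ libraries that share a number correlated by 0.571, 0.247 and 0.248 in HT29, all over 0.1, and by 0.25, 0.0923 and 0.14 in SW480. By a rule that asks for every value over 0.1, and not by labels, the HT29 numbers would pair libraries, while SW480 missed it by 1 value. The main tests of both lines were fitted without the replicate block, which was used only as an alternative. Between unlike numbers the highest value was 0.283 in HT29, mock 2 with ERβ 3, and 0.0599 in SW480, mock 3 with ERβ 2. Each SW480 library thus matched its own number best, and whether the numbers pair libraries is not settled in either line.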

Additional observations from a re-analysis of the deposited data

Results flagged for a closer look

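At RUNX3 site 1 (chr1:24925201-24925400) the ERβ effect was compared between the lines, with an interaction of 1.28 on the log2(signal + 1) scale that passed the test (limma adjusted p = 0.0305). That interaction was 0.99 above the median of all tested bins. ERβ minus mock was 1.13 in SW480 and -0.15 in HT29. The bin was listed for its level in SW480 ERβ, averaged 0.856 over the other 9 libraries and was tested only through SW480 ERβ. With bins of a mean of at least 0.5 tested, the interaction did not pass (limma adjusted p = 0.0673), so a difference between the lines is not established here. The adjusted p ranged from 0.000321 to 0.103 over 20 alternatives, of which 12 passed. The HT29 libraries numbered 1 stood apart in scale, with a median ratio of 1.12 (mock) and 1.02 (ERβ) against 0.695 to 0.791 for the other 4. Without both of them, a choice made after seeing the data, the interaction was 1.14 (limma adjusted p = 0.0359). With libraries rescaled by the median ratio it was 0.93 and did not pass (limma adjusted p = 0.0795).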

How the results depend on the processing

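At the named bins 329 of 385 alternative values kept direction and side of the threshold. Sites listed: the whole gene record gave 2 in HT29 mock and 2 in HT29 ERβ in place of 0, and leaving out single libraries gave 0 to 1 in HT29 ERβ (1 without replicate 2). SW480 ERβ against mock called 5 member bins, and 2 to 6 with single libraries left out. It called 11 at a test filter of 0.5, where 7124 of 1146535 bins of the genome were called. With input subtracted it called 10, where 10418 of 47526 bins of the genome were called. The number of tested bins or the input itself differs in these settings. The interaction called 1, and 0 to 5 with single libraries left out. With calls over the genome in brackets, it called 5 with the replicate block (9597 of 47526) and 4 without both HT29 libraries numbered 1 (3279). It called 0 at the filter of 0.5 (1142 of 1146535) and 0 after rescaling (938). It called 9 with input subtracted (8821) and 2 with shifted bins (1284 of 47557). SW480 against HT29 called 16 in mock and 22 with ERβ. At the filter of 0.5 it called 599 and 418, where 284320 and 247576 of 1146535 bins of the genome were called. How many member bins that filter tested is not given here. With input subtracted it called 1 and 9, where 3212 and 9068 of 47526 bins of the genome were called. The cause of these moves was not tested beyond these values.

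With the replicate block SW480 ERβ against mock called 6 member bins in place of 5 (RUNX3 site 2, limma adjusted p = 0.0451). The SW480 numbers missed the rule for pairing by 1 correlation, 0.0923 against 0.1. The block changed no other count of member bins but that of the interaction. Over the genome SW480 ERβ against mock went from 6133 calls to 9995 with the block, 3533 after rescaling, 10418 with input subtracted and 2194 to 13451 with single libraries left out. The interaction went from 1330 to 9597, 938, 8821 and 368 to 5295. The lines differed in 21843 (mock) and 20756 (ERβ) bins, 284320 and 247576 at the filter of 0.5 and 3212 and 9068 with input subtracted. HT29 ERβ against mock went from 0 to 60 with the block, 15 at the filter of 0.5 and 4 after rescaling.

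Signs turned only at differences that did not pass, with the exception of CBFB. RUNX1 site 1 in HT29 gave -0.42 to 0.0037 with single libraries left out. Between mock lines, RUNX1 site 1 gave -0.19 to 0.17, 0.00033 after rescaling and 0.04 with shifted bins, RUNX1 site 2 -0.20 to 0.09, and RUNX3 site 1 -0.12 to 0.07. RUNX3 site 2 in HT29 gave -0.10 to 0.16 and -0.28 with input subtracted. The CBFB promoter in SW480 gave -0.08 to 0.12, -0.30 after rescaling and -0.08 with shifted bins. Between mock lines it gave 0.66 (limma adjusted p = 0.0184), and -0.95 with input subtracted (limma adjusted p = 0.049). These values pass in opposite directions. The second rests on 1 input library per group, and no call is read from either. The tracks carry no counts, so a bin that was not listed may hold binding below the level these tracks resolve.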
